A study of Mus musculus with 18 samples.

Results

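miR-122 is the miRNA that marks hepatocytes, the main cell type of the liver. It was followed here through its 2 probes on a mouse miRNA array, which are all the spots that the array files list under the name mmu-miR-122. They make up 20 of the 11540 spots on an array that are not controls, 10 for each probe, and 1 of 576 miRNA names. Both probes were measured on all 18 arrays and passed the filter on dim probes, so nothing was lost to it.

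A miRNA is a short RNA that guides a silencing complex to matching messenger RNAs and lowers the protein made from them. miR-122 is made at a very high level in hepatocytes and at little or none in other cells. It is known for keeping genes of other tissues and stages silent in the liver, for its part in cholesterol and fatty acid metabolism, and as a blood marker that rises when hepatocytes are damaged.

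The livers came from male Muta™Mouse (transgenic mouse strain 40.6), animals that carry a bacterial lacZ gene in which mutations can be scored, at an age of 25 weeks. The mice were gavaged daily for 28 days with benzo(a)pyrene (BaP), a hydrocarbon that the liver turns into metabolites that bind DNA, and tissue was taken 3 days after the last dose. Vehicle controls received olive oil alone (n = 3), and the dosed groups received 25, 50 or 75 mg/kg/day in the same oil (n = 5 each). Each animal gave 1 array, and replicate numbers only name the arrays. P-values rest on the spread between these animals together with that between their arrays. In tests that pool the array slides, that spread also holds the gap between slides. All groups carried the transgene and all received the oil, so no group shows untreated liver.

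The arrays lay on 3 slides. On slide 1 were 1 control and 2 arrays of every dose. Slide 2 had no control, and its 4 arrays were split evenly between the 50 and 75 mg/kg/day groups. On slide 3 were 2 controls, 3 arrays of the lowest dose and 1 of each other dose. Agilent's software called between 56 and 143 mouse miRNA names detected per array, with the lowest count for 25 mg/kg/day replicate 4 and the next lowest, 69, for replicate 5 of that dose.

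Tissue identity matched the label. Of 12 miRNAs listed for hepatocytes, 9 were kept and were detected on all 18 arrays, and the list carried between 49.2% and 63.8% of an array's signal. miR-122 supplied most of that. Of the lists for muscle (6 miRNAs), neurons (5) and pancreatic cells (4), none was kept. Those 15 were at the software's minimum on every array, except miR-1, miR-133a and miR-133b together on 1 array at 50 mg/kg/day and miR-375 on 1 array at 25 mg/kg/day. For blood and immune cells 3 of 9 were kept, for endothelium 1 of 2 and for stellate and other mesenchymal cells 1 of 5. Blood and immune markers together gave between 1.47% and 2.58% of the signal in controls, 0.773% and 2.81% at 25, 1.14% and 2.87% at 50, and 0.509% and 4.58% at 75 mg/kg/day. Endothelial markers gave between 0.232% and 0.690% and mesenchymal markers between 0.0448% and 0.149% over all arrays. The part of these cells in the miR-122 values was not tested.

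The 2 probes were among the brightest on every array and lay below saturation. Their spot signals are intensities in arbitrary units with the local background left in, and the probes are called the dimmer and the brighter probe by their level on these arrays. The median signal of the dimmer probe was 13471, 12528 and 7328 in the controls. It was 12167, 11355, 7920, 3583 and 4249 at 25, then 4592, 9627, 11156, 9626 and 12458 at 50, and 6535, 7773, 8966, 8946 and 12005 at 75 mg/kg/day. The lowest values were thus those of 25 mg/kg/day replicates 4 and 5 and of 50 mg/kg/day replicate 1, and every dosed group overlapped the controls.

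The brighter probe gave 22636, 33767 and 20114 in the controls. It gave 21038, 16346, 23401, 10294 and 12955 at 25, then 6897, 15480, 28827, 26564 and 34573 at 50, and 10034, 12317, 23826, 24829 and 32729 at 75 mg/kg/day. On 18 of 18 arrays the brighter probe exceeded the dimmer one, and the dosed groups again overlapped the controls. The negative control spots, which match no miRNA, had medians between 42 and 76. On the same array the dimmer probe exceeded them between 50.5- and 299-fold, and the brighter probe between 125- and 532-fold.

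All 360 miR-122 spots of the 18 arrays were well above background and 0 were saturated. The software marked 10 of them as outliers, either for unevenness within the spot or within their replicate set. The coefficient of variation over the 10 spots of a probe lay between 4.21% and 14.6% for the dimmer probe and between 9.80% and 15.6% for the brighter one. On 13 arrays no spot of any other miRNA was brighter than the dimmest miR-122 spot, and on the other 5 arrays between 2 and 9 spots were.

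The software combined scans at a high and a low detector gain where spots were too bright for the high gain. It replaced these spots by their low-gain value multiplied by the ratio of the gains. This multiplication, by 19.6 to 20.3, touched 107 spots on 12 of the 18 arrays. All 107 belonged to the brighter miR-122 probe, and 0 belonged to the dimmer probe or to any other miRNA. On 10 arrays it covered all 10 spots of the brighter probe, on control replicate 3 it covered 6, and on 25 mg/kg/day replicate 2 it covered 1. The 6 arrays without such spots were both 50 and both 75 mg/kg/day arrays of slide 1 and 25 mg/kg/day replicates 4 and 5 of slide 3. miR-122 was therefore the only miRNA on these arrays read partly at another gain, which touched 3 of 3 controls and 3 of 5 arrays at each dose. The lowest multiplied spot read 17712, on 25 mg/kg/day replicate 1. The highest spot read from the high gain alone was 19384, on 50 mg/kg/day replicate 2. The agreement of the 2 ways of reading was not tested.

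**Figure D1:**
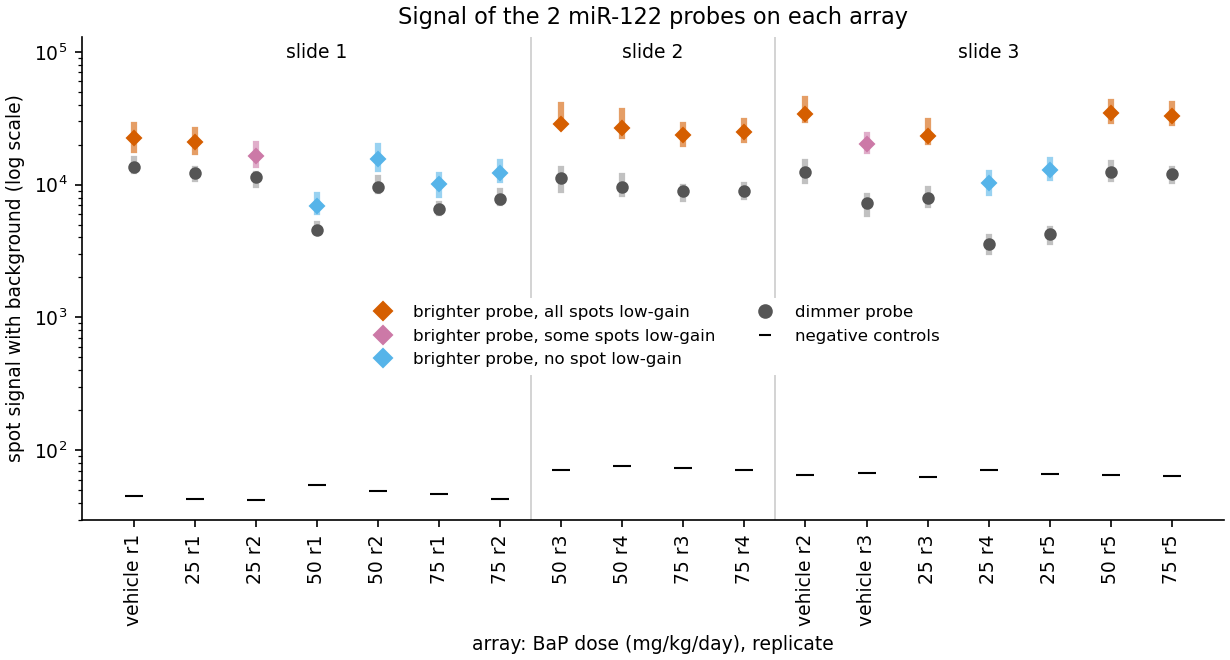
Signal of the 2 miR-122 probes on each of the 18 arrays (log axis, arbitrary units), ordered by slide. Points are medians over the 10 spots of a probe, vertical bars run from the lowest to the highest spot, and dashes are the median negative control. The brighter probe is coloured by how many of its spots were read from the low-gain scan. The 2 probes lie close together on slide 1 and farther apart on slides 2 and 3.

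The distance between the probes followed the slide. The brighter probe was between 1.44 and 1.73 times the dimmer one on the 7 arrays of slide 1, between 2.58 and 2.78 times on the 4 arrays of slide 2 and between 2.70 and 3.05 times on the 7 arrays of slide 3. Slide 1 did not overlap the others. After background subtraction the brighter probe made up 61.9% ± 1.16 (SD, n = 7) of the summed miR-122 signal on slide 1, 74.5% ± 0.753 (SD, n = 4) on slide 2 and 75.0% ± 1.06 (SD, n = 7) on slide 3. The gain did not sort in the same way, since slide 1 held arrays read from the high gain alone and arrays read from the low gain, as did slide 3. Within slide 1 the ratio was 1.68 and 1.73 on the 2 arrays with all spots multiplied and between 1.50 and 1.61 on the 4 with none. Within slide 3 it was between 2.70 and 2.95 on the 4 arrays with all spots multiplied and 2.87 and 3.05 on the 2 with none.

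Dose did not separate the probe ratio. The ratio was 1.68, 2.70 and 2.74 in the controls. It was 1.73, 1.44, 2.95, 2.87 and 3.05 at 25, then 1.50, 1.61, 2.58, 2.76 and 2.78 at 50, and 1.54, 1.58, 2.66, 2.78 and 2.73 at 75 mg/kg/day. After normalisation the log2 difference between brighter and dimmer probe was 1.21 ± 0.34 (SD, n = 3) in controls, and 1.21 ± 0.46, 1.08 ± 0.42 and 1.11 ± 0.36 in the 25, 50 and 75 mg/kg/day groups (SD, n = 5 each). The differences from control were 0.0009, -0.14 and -0.10, with an exact two-sided permutation P of 1, 0.518 and 0.518 and Benjamini-Hochberg adjusted values over the 3 doses of 1, 0.777 and 0.777. Within slide 3 all 3 arrays at 25 mg/kg/day had a higher ratio than both controls, by 0.239 on average. Within slide 1 1 array at 25 mg/kg/day was above and 1 below the control, with a mean difference of -0.0961. At 50 and at 75 mg/kg/day both arrays of slide 1 lay below its control, by 0.125 and 0.12 on average, whereas on slide 3 the differences were 0.055 and 0.0061. The difference from control thus had opposite signs on the 2 slides at each dose. With labels permuted within slides, the log2 probe difference was 0.05, -0.10 and -0.06, with an exact two-sided P of 0.6, 0.333 and 0.333, in a design that cannot give a P under 0.111 at the 2 higher doses.

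miR-122 carried a large share of the signal, which was steady within a slide after background subtraction. The share is the total gene signal of miR-122 as a percent of the sum of such signals over all 566 mouse miRNAs. The software gives this signal after background subtraction, and for miR-122 it equals the sum of the totals of its 2 probes. It is a share of signal and not of molecules, because probes differ in how well they bind. It was 42.5%, 51.0% and 50.6% in the controls. It was 42.0%, 44.1%, 50.7%, 54.2% and 53.8% at 25, then 41.0%, 42.8%, 48.8%, 51.6% and 51.9% at 50, and 39.5%, 43.3%, 52.7%, 53.6% and 52.0% at 75 mg/kg/day. In every group the values at or under 44.1% were those of slide 1, and the groups overlapped. Taken from median signals with the background left in, the share was lower and less steady. It then ran from 13.6% on 50 mg/kg/day replicate 1 to 30.0% on replicate 5 of that dose.

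By slide the share was 42.2% ± 1.55 (SD, n = 7) on slide 1, 51.7% ± 2.08 (SD, n = 4) on slide 2 and 52.0% ± 1.46 (SD, n = 7) on slide 3, and slide 1 overlapped neither of the others. The miR-122 signal itself was far less steady. It ranged from 7964 to 32443 over the 18 arrays, a 4.07-fold span, and 3.03-fold within slide 1 and 3.44-fold within slide 3. Over the same arrays the share spanned 1.12-fold within slide 1 and 1.07-fold within slide 3. miR-122 signal and the summed signal of the other miRNAs thus rose and fell together from array to array, while the background-subtracted share kept to its slide.

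No difference in the share was found between dose groups, whether slides were pooled or kept apart. Means were 48.0% ± 4.81 (SD, n = 3) in controls, and 48.9% ± 5.62, 47.2% ± 5.07 and 48.2% ± 6.41 in the 25, 50 and 75 mg/kg/day groups (SD, n = 5 each), and these SDs hold the gap between slides as well as the spread between animals. The differences from control were 0.938, -0.787 and 0.225 percentage points. The exact two-sided permutation P was 0.732, 0.732 and 0.964, and 0.964 for each dose after Benjamini-Hochberg adjustment over the 3 doses. Within slide 1 the differences were 0.564, -0.591 and -1.06 points, with 1 of the 2 arrays above and 1 below the control at each dose. Within slide 3 they were 2.11, 1.12 and 1.26 points, and 2 of 3 arrays at 25, the array at 50 and the array at 75 mg/kg/day lay above both controls. With labels permuted within slides 1 and 3, the differences were 1.56, 0.263 and 0.0995 points, with an exact two-sided P of 0.267, 0.889 and 1 (0.8, 1 and 1 after adjustment over the 3 doses). That test cannot give a P under 0.0333 at 25 or under 0.111 at the other doses, so at 50 and 75 mg/kg/day it could not have reached 0.05. The 2 highest shares within slide 3 were those of the 2 arrays with the fewest detected miRNAs, and the part of detection in the share was not tested. Total liver RNA was measured, so fewer hepatocytes and less miR-122 per hepatocyte cannot be told apart.

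**Figure D2:**
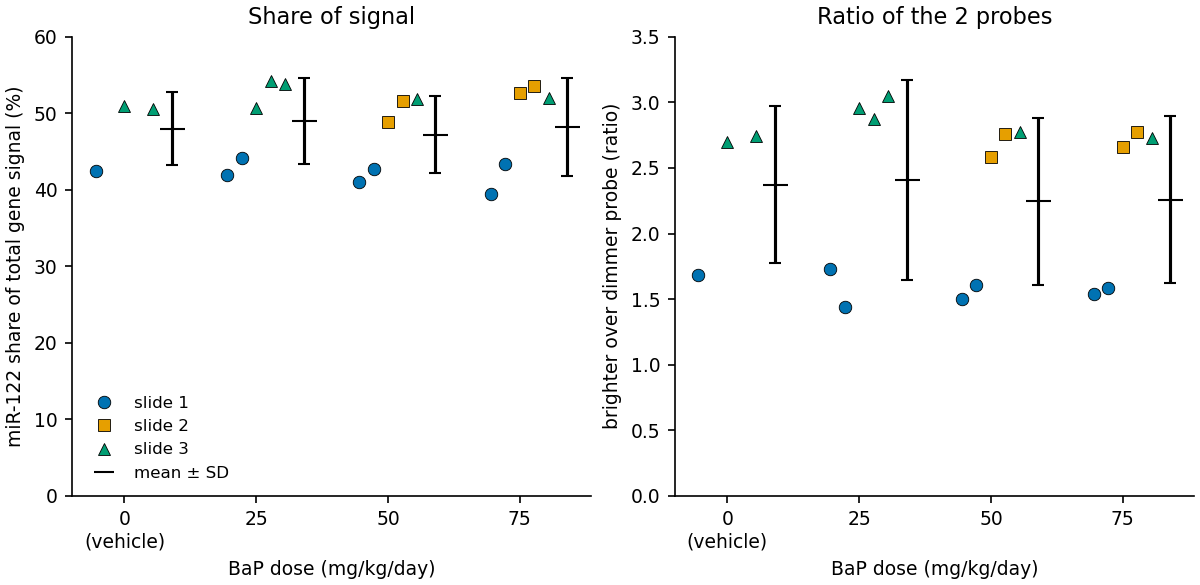
Left, miR-122 as a percent of the total gene signal of all mouse miRNAs by BaP dose. Right, the ratio of the brighter to the dimmer miR-122 probe by dose. Each point is 1 animal, colour and shape give the slide, and bars are mean ± SD of the group (n = 3 for vehicle, 5 for each dose). Slide 1 lies apart in both panels, with shares of 39.5% to 44.1% and ratios of 1.44 to 1.73, at every dose.

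Scaling between arrays moved miR-122 by large amounts. Before scaling, the log2 signal (mean of both probes) was 14.15, 14.33 and 13.57 in the controls. It was 13.96, 13.74, 13.73, 12.57 and 12.86 at 25, then 12.43, 13.58, 14.13, 13.96 and 14.34 at 50, and 12.98, 13.26, 13.84, 13.86 and 14.27 at 75 mg/kg/day. The spread was wide in every group, with SDs of 0.40 in controls and 0.62, 0.76 and 0.52 at the 3 doses. Cyclic loess, which fits a curve of the difference between arrays against signal, moved miR-122 by between -0.82 on control replicate 2 and 1.20 on 25 mg/kg/day replicate 4.

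After cyclic loess the log2 signal was 13.48, 13.51 and 13.52 in the controls. It was 13.65, 13.83, 13.39, 13.77 and 13.64 at 25, then 13.33, 13.51, 13.48, 13.49 and 13.60 at 50, and 13.45, 13.84, 13.57, 13.59 and 13.58 at 75 mg/kg/day. The 3 controls lay very close together, 4 of 5 arrays at 25 and 4 of 5 at 75 mg/kg/day lay above them, and 1 of 5 in each of these groups lay below them. At 50 mg/kg/day 1 array lay above the controls and 2 below, 1 of these by less than the rounding of the values given here. Group means were 13.50 ± 0.02 (SD, n = 3) in controls, and 13.66 ± 0.17, 13.48 ± 0.10 and 13.61 ± 0.14 in the 25, 50 and 75 mg/kg/day groups (SD, n = 5 each). The closeness of the controls depended on the scaling. Their SD was 0.40 before scaling, 0.19 with the miR-122 spots given no weight in the loess and 0.57 in the table the authors deposited. The counts above and below the controls hold for this scaling only.

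**Figure D3:**
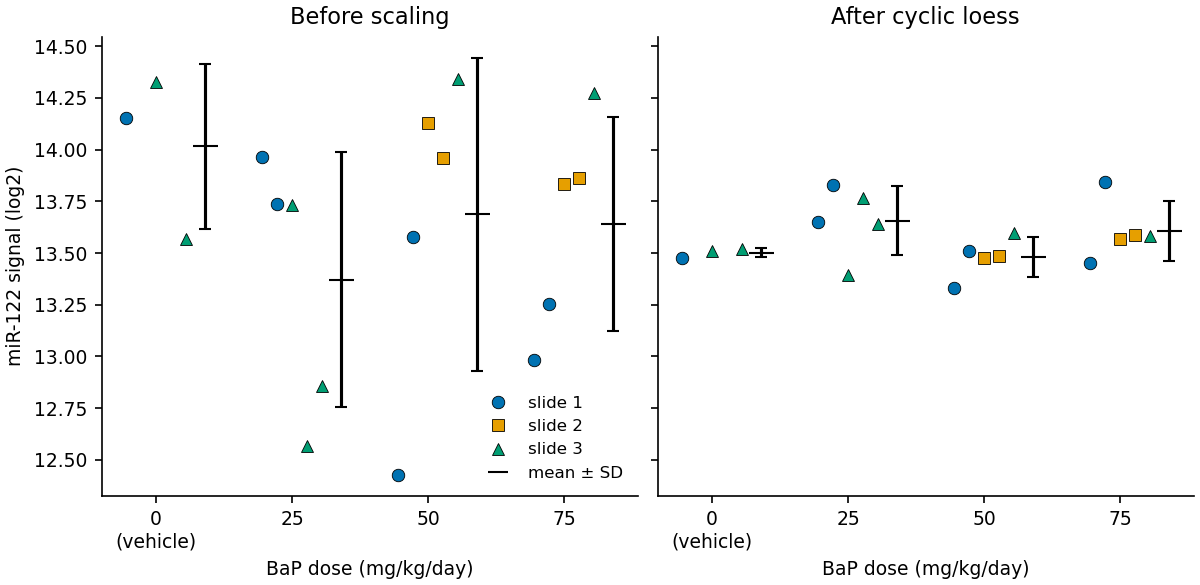
miR-122 log2 signal (mean of both probes) by BaP dose before scaling (left) and after cyclic loess (right), on the same axis. Each point is 1 animal, colour and shape give the slide, and bars are mean ± SD of the group (n = 3 for vehicle, 5 for each dose). Values run from 12.43 to 14.34 before scaling and from 13.33 to 13.84 after it, and every dosed group overlaps the controls in both panels.

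Whether miR-122 responded to BaP was asked with a linear model of dose and slide over all 18 arrays, fitted to the 69 miRNAs that passed the filter on dim probes (limma, Benjamini-Hochberg adjustment over all 69). miR-122 did not pass the threshold, an adjusted P of 0.05, at any dose. At 25 mg/kg/day it differed from control by 0.15 ± 0.09 (SE) on the log2 scale, a fold of 1.11 with a 95% interval from 0.969 to 1.28 (limma adjusted P = 0.524). No miRNA passed at this dose (0% of the 69). At 50 mg/kg/day the difference was -0.02 ± 0.10 (SE), a fold of 0.987 from 0.850 to 1.15 (limma adjusted P = 0.920), where 2.90% of the miRNAs passed. At 75 mg/kg/day it was 0.11 ± 0.10 (SE), a fold of 1.08 from 0.927 to 1.25 (limma adjusted P = 0.4998), where 5.80% passed. By their upper limits these intervals leave room for a rise of up to 1.28-fold and by their lower limits for a level as low as 0.850 of control. These limits hold for cyclic loess over all spots only. At 25 mg/kg/day the log2 difference was 0.30 ± 0.15 (SE) with the miR-122 spots given no weight and -0.63 ± 0.42 (SE) with no scaling.

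The order of the group means was 25, 75, 0 and 50 mg/kg/day, which is not the order of the doses. No neighbouring pair in this order was separated by the test. The 75 mg/kg/day group differed from the 25 mg/kg/day group by -0.05 ± 0.09 (SE) on the log2 scale (limma adjusted P = 0.855, 2.90% of the 69 called). The slope over dose was 0.02 ± 0.04 (SE) per 25 mg/kg/day (limma adjusted P = 0.813), in a comparison where 10.1% of the miRNAs passed. The joint test of the 3 doses gave F = 1.89 (limma adjusted P = 0.497, 2.90% called). By unadjusted P in the joint test, miR-122 was the 24th of the 69.

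Within slide 1 the log2 differences from the control were 0.26 at 25, -0.06 at 50 and 0.17 at 75 mg/kg/day. Within slide 3 they were 0.09, 0.08 and 0.07. The 25 and 75 mg/kg/day differences were thus above 0 on both slides and the 50 mg/kg/day difference was not, with only 1 or 2 control arrays per slide. Each probe was also tested by itself, among the 112 probes kept. The dimmer probe differed from control by 0.13 ± 0.10, 0.02 ± 0.11 and 0.13 ± 0.11 (SE) at the 3 doses, with limma adjusted P of 0.605, 0.946 and 0.502. The brighter probe differed by 0.18 ± 0.10, -0.06 ± 0.11 and 0.09 ± 0.11 (SE), with limma adjusted P of 0.475, 0.903 and 0.702. Neither probe passed at any dose, and the direction differed between them at 50 mg/kg/day.

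The sign of the miR-122 change depended on how arrays were scaled. The miR-122 spots lie at the bright end of the loess curve, so it was refitted with those spots given no weight. Then the differences from control were 0.30, 0.06 and 0.23 at the 3 doses, and 25 mg/kg/day replicate 4 stood highest at 14.30. With no scaling they were -0.63, -0.46 and -0.50, while the median of all 69 miRNAs moved by -0.28, -0.19 and -0.30, so miR-122 minus that median came to -0.35, -0.27 and -0.21. Scaling to each array's 75th percentile moved the median of all miRNAs by 0.42, 0.30 and 0.28 and miR-122 by 0.07, 0.02 and 0.07. The difference between miR-122 and the median of all miRNAs is the same there as with no scaling, since both move every miRNA of an array alike. Under cyclic loess that difference was 0.17, 0.01 and 0.14, with the opposite sign. None of the scalings brought miR-122 past the threshold at any dose. Quantile scaling could hardly have done so, because it gives the brightest spots of every array the same values. The smallest limma adjusted P for a dose was 0.0849, for the change of 0.29 at 75 mg/kg/day. It came from the total gene signals of the software, scaled to each array's 75th percentile over the miRNAs detected on all arrays.

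**Figure D4:**
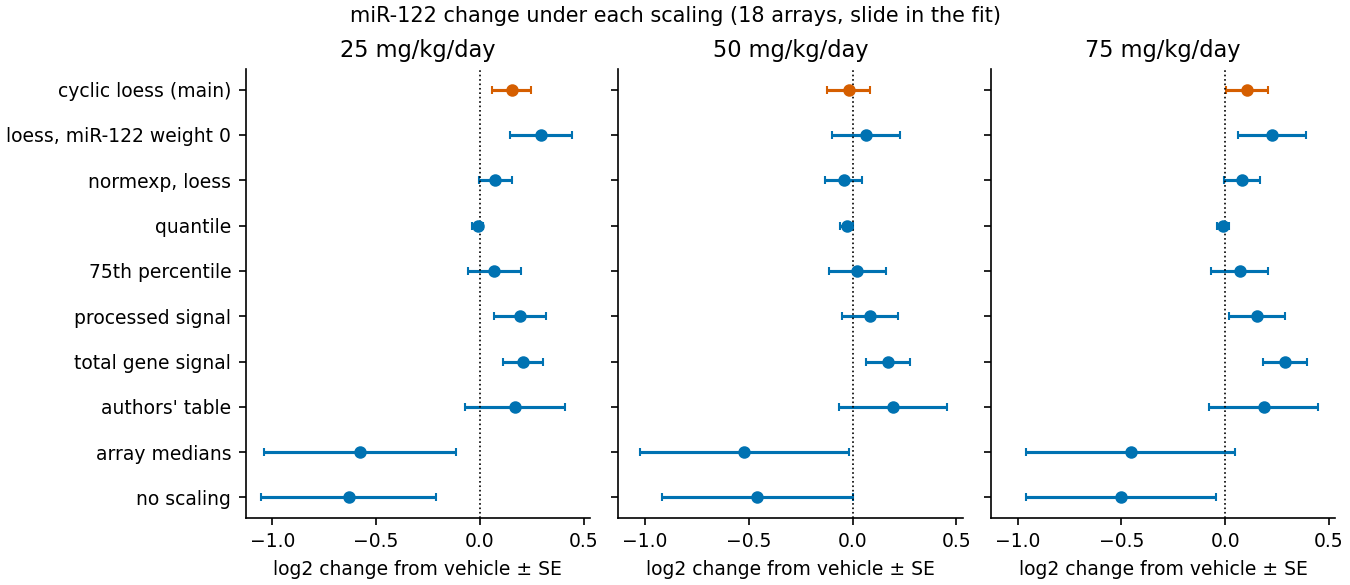
Log2 change of miR-122 from vehicle at each dose under 10 ways of scaling the arrays, as the limma estimate ± SE from 18 arrays with slide in the fit. The orange point is the cyclic loess value of 0.15, -0.02 or 0.11. The array medians, the unscaled values and, narrowly, quantile scaling lie left of 0 at every dose. Loess with miR-122 at weight 0, the 75th percentile, processed signal, total gene signal and the authors' table lie right of 0 at every dose. Cyclic loess and normexp change side between doses. Quantile scaling has the shortest error bars, but it gives the brightest spots of every array the same values and can hardly show a change.

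The table of log2 values that the authors deposited gave yet another order of the arrays. There miR-122 read 12.98, 13.77 and 14.10 in the controls. It read 12.62, 13.02, 13.99, 14.70 and 14.30 at 25, then 13.68, 13.28, 13.40, 13.83 and 13.75 at 50, and 13.27, 13.35, 13.73, 13.85 and 13.69 at 75 mg/kg/day. The array at 25 mg/kg/day with the next to lowest signal of all 18 before scaling, replicate 4, was the highest of all in this table, and replicate 1 of that dose was the lowest. In this table the mean of miR-122 also differed by slide, though slide 2 overlapped both other slides. It was 13.17 ± 0.34 (SD, n = 7) on slide 1, 13.70 ± 0.21 (SD, n = 4) on slide 2 and 14.04 ± 0.36 (SD, n = 7) on slide 3. With slide in the fit its differences from control were 0.17, 0.19 and 0.19, again past no threshold.

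**Figure D5:**
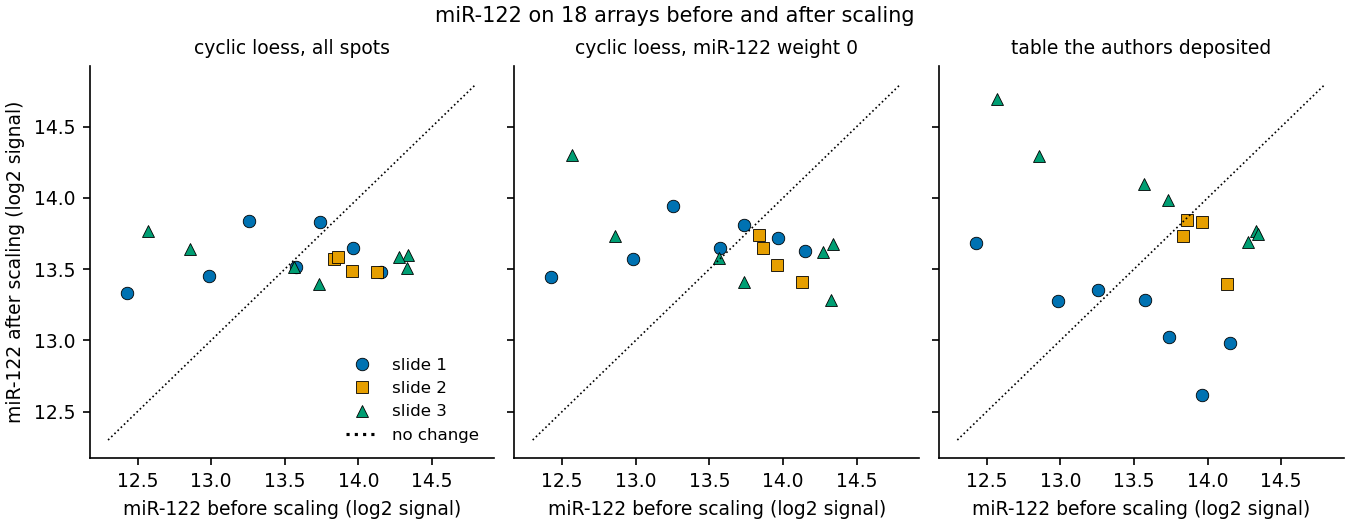
miR-122 log2 signal of each of the 18 arrays before scaling (horizontal axis) against 3 scaled versions (vertical axis): cyclic loess over all spots, cyclic loess with the miR-122 spots at weight 0, and the deposited table. Colour and shape give the slide and the dotted line marks no change. The array lowest but 1 before scaling, at 12.57, reads 13.77, 14.30 and 14.70 after the 3 scalings.

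The spread of miR-122 between animals was in the upper part of the range over all miRNAs, most of which were far dimmer. Its residual SD, the spread left after dose and slide, was 0.138 on the log2 scale after cyclic loess. The median over the other miRNAs was 0.0800, the range over all 69 ran from 0.0345 to 0.446, and 10 of the 68 others varied more. Of the 5 miRNAs with the next highest mean signal, 3 varied more, namely miR-22 (0.143), let-7f (0.177) and miR-21 (0.171), and miR-720 (0.0957) and let-7a (0.121) varied less. These 5 were picked by signal after their values were seen. Before scaling the residual SD was 0.618 against a median of 0.298, and with the miR-122 spots at weight 0 it was 0.226. Slide accounted for 2.42% of the variance of miR-122 and for a median of 57.7% of that of the other miRNAs. The 2 probes averaged here shifted in opposite directions between slides. The dimmer probe averaged 13.23 ± 0.19 (SD, n = 7) on slide 1 and 12.84 ± 0.11 (SD, n = 7) on slide 3, whereas the brighter probe averaged 13.94 ± 0.21 and 14.30 ± 0.13.

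The miRNAs whose pattern was most like that of miR-122, by Pearson correlation over the 18 arrays after slide means were removed, were miR-21 (r = 0.57), miR-101b (r = 0.43) and miR-27b (r = 0.40) of 68. miR-21 is a widely expressed miRNA that is raised in many injured tissues. The points share array, RNA and scaling, and the order depended on the last of these. With the miR-122 spots at weight 0 these 3 ranked 1, 9 and 13, and before scaling, when most miRNAs rose and fell with the array, they ranked 27, 31 and 40. None of the 3 passed the threshold at any dose, and their differences from control lay between -0.12 and 0.13.

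None of the other hepatocyte miRNAs passed the threshold either. Of the 9 kept members of that list, which include miR-122, 0 rose and 0 fell at 25, at 50 and at 75 mg/kg/day, where 0%, 2.90% and 5.80% of the 69 miRNAs passed. Their median log2 change was 0.04, -0.03 and -0.08, beside -0.02, -0.02 and -0.03 for all 69. miR-122 had the highest change of the 9 at 25 and at 75 mg/kg/day. miR-192 and miR-194, which come from shared transcripts and are abundant in liver and gut, differed from control by 0.06, -0.01 and 0.01 and by 0.08, 0.03 and 0.02. miR-193 differed by 0.14, 0.10 and 0.05, and miR-365, transcribed beside a miR-193 gene, by 0.04, -0.06 and -0.08. miR-101a, which targets the histone methyltransferase Ezh2, differed by -0.06, -0.08 and -0.11, and miR-101b by 0.04, -0.03 and -0.08. miR-22 differed by -0.004, -0.11 and -0.17. The member nearest the threshold was miR-148a, which targets the DNA methyltransferase Dnmt1, at -0.15, -0.22 and -0.22 with limma adjusted P of 0.432, 0.0880 and 0.0669.

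Of the 5 kept markers of other cells, 0 passed at 25, 0 at 50 and 1 at 75 mg/kg/day, beside 0%, 2.90% and 5.80% of all 69 miRNAs. Of the 3 blood and immune miRNAs, miR-451, miR-144 and miR-223, 0 passed at any dose, and the endothelial miR-126-3p did not pass. The mesenchymal miR-199a-3p fell by 0.22 at 75 mg/kg/day (limma adjusted P = 0.00931). Its part in the miR-122 values was not tested.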

How the data were processed

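miRNA was measured in 18 livers on 1-colour Agilent arrays, 1 per animal. The deposited scanner values are spot intensities, which the authors extracted with Agilent Feature Extraction 10.7.3.1 and which are not normalised between arrays. The authors also deposited a table of log2 values per miRNA, normalised by cyclic lowess with unknown centring, which was used only as an alternative.

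Groups were taken from the labels. Median signals without background subtraction were log2 transformed and normalised over the 11540 non-control spots by cyclic loess (limma 3.58.1, method "fast", span 0.7, 3 iterations). Outlier spots were removed, and the median was taken over spots. A probe was present on an array if at least 0.5 of its spots were well above background, and was kept if present in at least 0.8 of the arrays of a group (4 of 5, or 3 of 3 controls). This left 112 probes of 69 miRNAs, averaged per miRNA. Models of dose group and slide were fitted in R 4.3.3 with limma, in place of the MAANOVA of the methods, after a check on simulated data. Slides came from the array barcodes, and scan days split the arrays alike. Shares and probe differences were tested by exact permutation over animals, in Python 3.11.15. Alternatives covered scaling, background, filter, slide, probes and each array left out. Depth has no meaning for arrays, whose number limits the precision. With background left in, changes of dim probes are compressed, those of miR-122 hardly.

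miRNAs named are miR-122, the 3 most correlated with it and the kept members of the hepatocyte list. miR-122, the lists and the tests were chosen with earlier results of these data known. Other control animals of the study are not analysed here. The authors state that quality checks by boxplots and clustering removed miRNA arrays, without naming their groups. The control group is the smallest one here, so its level and spread may rest on such a selection.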

Additional observations from a re-analysis of the deposited data

Results flagged for a closer look

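In 18 checks (6 measures in the 3 dosed groups, each for an array far from the other 4) 1 array stood apart, and chance alone gives about 1 in 20. The normalised log2 signal of the brighter probe on 75 mg/kg/day replicate 1 was 13.79, the nearest array of that dose read 14.22 and the farthest 14.29, so that the gap took 0.856 of the range. That array lay on slide 1, where the brighter probe read lower as a whole. The other slide 1 array of that dose was the nearest one.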

How the results depend on the processing

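Every alternative listed for this work was run, and in none did miR-122 pass an adjusted P of 0.05. The single-probe fits were added after the values were seen. The signs were not stable. Changes at 25 and 75 mg/kg/day and the slope turned to -0.63, -0.50 and -0.11 with no scaling, to -0.58, -0.46 and -0.11 with array medians centred, and to -0.0109, -0.0105 and -0.0032 with quantile scaling, which fixes the brightest spots. The change at 50 mg/kg/day turned to 0.064 with miR-122 at weight 0, 0.0237 with the 75th percentile, 0.083 with processed signal, 0.17 with total gene signal, 0.19 in the deposited table, 0.0128 with outlier spots kept and 0.0177 with the dimmer probe alone. The difference of 75 from 25 mg/kg/day turned to 0.13 with no scaling, 0.12 with medians centred, 0.000408 with quantile, 0.00727 with normexp, 0.0797 with total gene signal and 0.0161 in the deposited table. The share differences at 25 and 75 mg/kg/day turned to -4.59 and -2.51 points with median signal, in which the background is left. That at 50 mg/kg/day turned to 0.263 points within slides. The probe difference at 25 mg/kg/day turned to -0.0514 with no scaling and -0.0384 with processed signal. The cause of these turns was not tested.

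Without 1 array at a time the change lay from 0.11 to 0.22 at 25, from -0.0884 to 0.0363 at 50 (above 0 without 50 mg/kg/day replicate 1) and from 0.03 to 0.16 at 75 mg/kg/day. The difference of 75 from 25 mg/kg/day lay from -0.12 to 0.0124 (above 0 without 25 mg/kg/day replicate 2 or 75 mg/kg/day replicate 1), the slope from -0.00755 to 0.0364 (below 0 without 75 mg/kg/day replicate 2) and F from 1.29 to 4.16. Share differences lay from -1.83 to 2.68, from -3.56 to 0.775 and from -2.55 to 2.42 points at 25, 50 and 75 mg/kg/day, and probe differences from -0.19 to 0.16, from -0.33 to -0.00762 and from -0.30 to 0.00369. No paired analysis was possible because the labels carry no replicate numbers shared between groups. All miR-122 spots were well above background. Which of scaling, slide and the number of arrays limited these values most was not tested.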
